A study of Homo sapiens with 4 samples.

Results

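The 4 HOX clusters are the gene groups HOXA, HOXB, HOXC and HOXD, which hold 38 of the genes followed here. Accessible sites in them were taken as the ATAC-seq peaks that overlap 4 hg19 windows, each drawn around 1 cluster: chr7:27110001-27260000 for HOXA, chr17:46590001-46830000 for HOXB, chr12:54310001-54470000 for HOXC and chr2:176935001-177075000 for HOXD. When the peaks of the 4 lists were merged wherever they shared at least 1 base, the windows held 224 of the 373425 merged regions of chromosomes 1 to 22 and X. Of these, 47 lay in the HOXA window, 75 in HOXB, 50 in HOXC and 52 in HOXD. ATAC-seq, in which a transposase cuts and tags open chromatin, was run on BCPAP, an established thyroid cancer cell line, in 4 libraries. Untreated cells gave 2 libraries and cells treated with 5-azacytidine gave 2. The labels give no dose, no duration and no vehicle, and do not say whether the libraries came from separate cultures, so every p-value below measures only the spread between libraries. The stated purpose was to see where accessibility changed after removal of DNA methylation, and no measure of methylation or expression was analysed here.

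HOX genes encode homeodomain transcription factors that set the identity of body segments along the head-to-tail axis. Within a cluster the genes lie in the order of their paralogue groups, and the low-numbered genes are used earlier and closer to the head than the high-numbered ones. In many adult tissues parts of the clusters are held silent by Polycomb complexes, and their CpG-rich promoters are often methylated in tumours. HOXA3 and its paralogues take part in forming the thyroid, parathyroid and thymus. Once built into DNA, the nucleoside drug 5-azacytidine binds DNA methyltransferases for good, so that strands copied afterwards carry less methylation at CG dinucleotides.

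From low to high coordinate, the HOXA window runs from HOXA2 to HOXA13 and the HOXB window from HOXB1 to HOXB13, while the HOXC window runs from HOXC13 to HOXC4 and the HOXD window from HOXD13 to HOXD1. This order was read from RefSeq on GRCh38.p14. Gene positions on hg19 were not used here, so no region below is tied to a gene, to an exon or to a promoter, and nearness to a given gene was not tested.

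Promoter sequences are shown for 3 members, chosen to span the range of CG content of the HOX promoters at hand. Whether they were methylated in these cells or changed by the drug was not tested. A promoter of 300 bases (250 before to 50 after the first listed start) was at hand for 20 of the 38 genes: 9 of HOXA, 1 of HOXB, 2 of HOXC and 8 of HOXD. The 250 bases before the start are given 5′ to 3′ on the gene's own strand, with each CG dinucleotide in capitals. HOXA13, at the high end of its cluster and known for its part in limb and genital development, lies on the minus strand (GRCh38.p14 chr7:27200092-27200341). HOXD1, at the other end of its cluster from HOXD13, lies on the plus strand (GRCh38.p14 chr2:176188418-176188667), as does HOXD4 (GRCh38.p14 chr2:176151300-176151549), a hindbrain patterning gene.
HOXA13: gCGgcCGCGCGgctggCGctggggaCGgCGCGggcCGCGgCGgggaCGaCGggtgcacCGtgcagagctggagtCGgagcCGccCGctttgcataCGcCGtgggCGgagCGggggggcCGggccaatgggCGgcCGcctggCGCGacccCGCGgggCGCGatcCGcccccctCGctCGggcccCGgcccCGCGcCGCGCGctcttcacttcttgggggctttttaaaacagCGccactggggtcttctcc
HOXD1: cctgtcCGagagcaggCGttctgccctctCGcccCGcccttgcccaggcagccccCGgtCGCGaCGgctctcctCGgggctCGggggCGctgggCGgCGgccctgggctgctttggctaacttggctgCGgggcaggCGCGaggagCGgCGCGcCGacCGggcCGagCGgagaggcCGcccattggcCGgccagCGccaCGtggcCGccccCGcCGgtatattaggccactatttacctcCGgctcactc
HOXD4: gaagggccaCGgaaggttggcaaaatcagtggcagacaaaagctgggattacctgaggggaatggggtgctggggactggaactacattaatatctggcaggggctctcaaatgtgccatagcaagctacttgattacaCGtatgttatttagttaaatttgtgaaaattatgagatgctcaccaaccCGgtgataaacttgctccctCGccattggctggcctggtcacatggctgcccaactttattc
HOXA13 has 40 CG dinucleotides in these bases, HOXD1 has 31 and HOXD4 has 4. HOXC4 and HOXC5 share their first listed start, so the 20 genes have 19 distinct promoters. Over the 300 bases these had a median of 23 CG (range 4 to 44), against a median of 13 (range 0 to 77) over the 27168 distinct promoters of the table. All 19 held at least 1 CG, as did 95.8% of all promoters, and 16 of the 19 were at or above the median of all promoters. By cluster the median was 22 for the 9 HOXA promoters and 24.5 for the 8 HOXD promoters, while the matched HOXB promoter (HOXB1) had 11. The GC content hardly differed from other promoters, with a median of 58.0% against 58.3%. These letters are on another build than the peaks and were not laid over them.

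The lists differed in ways that touch every count below. They held 221110 and 223345 peaks in untreated and 259572 and 245142 in treated cells, a ratio of means of 1.14. The strength of a peak is given as the read coverage at its summit, which was recovered from the authors' fold enrichment, is the peak's own value and was not scaled between libraries. Treated replicate 1 stood apart, with a median summit coverage of 7 reads over its peaks against 12, 10 and 9 in untreated 1, untreated 2 and treated 2. It listed 116925 peaks of 4 to 6 reads, against 51659, 66503 and 73391 in the same order. In all 4 lists the weakest peak had a coverage of 4. Values are therefore given per library, and with treated replicate 1 left out where it decides them.

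The HOX windows carried more peaks after treatment, and HOXD had the largest share of the increase. Over the 4 windows there were 126 and 125 peaks in untreated cells and 161 and 179 in treated cells. Both treated libraries thus lay above both untreated ones, at 170 ± 12.7 against 125.5 ± 0.707 (mean ± SD, n = 2 each), a ratio of 1.35 or 0.44 on the log2 scale. An exact permutation test (two-sided, all 6 ways of assigning the libraries) gave p = 0.333, the smallest value 2 against 2 can give, so no comparison of peak numbers here can pass a threshold of 0.05. Peaks covered 61663 and 59782 bases of the windows in untreated and 78941 and 84579 in treated cells, the same ratio of 1.35 (exact permutation p = 0.333). All peak intervals were 500 bp long, so bases follow the peak number except where peaks overlap and are no separate result. The windows were denser than the genome in every library: 18.3 and 18.1 peaks per 100 kb in untreated and 23.3 and 25.9 in treated cells, against 7.29 and 7.36, and 8.55 and 8.08, over chromosomes 1 to 22 and X.

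**Figure D1:**
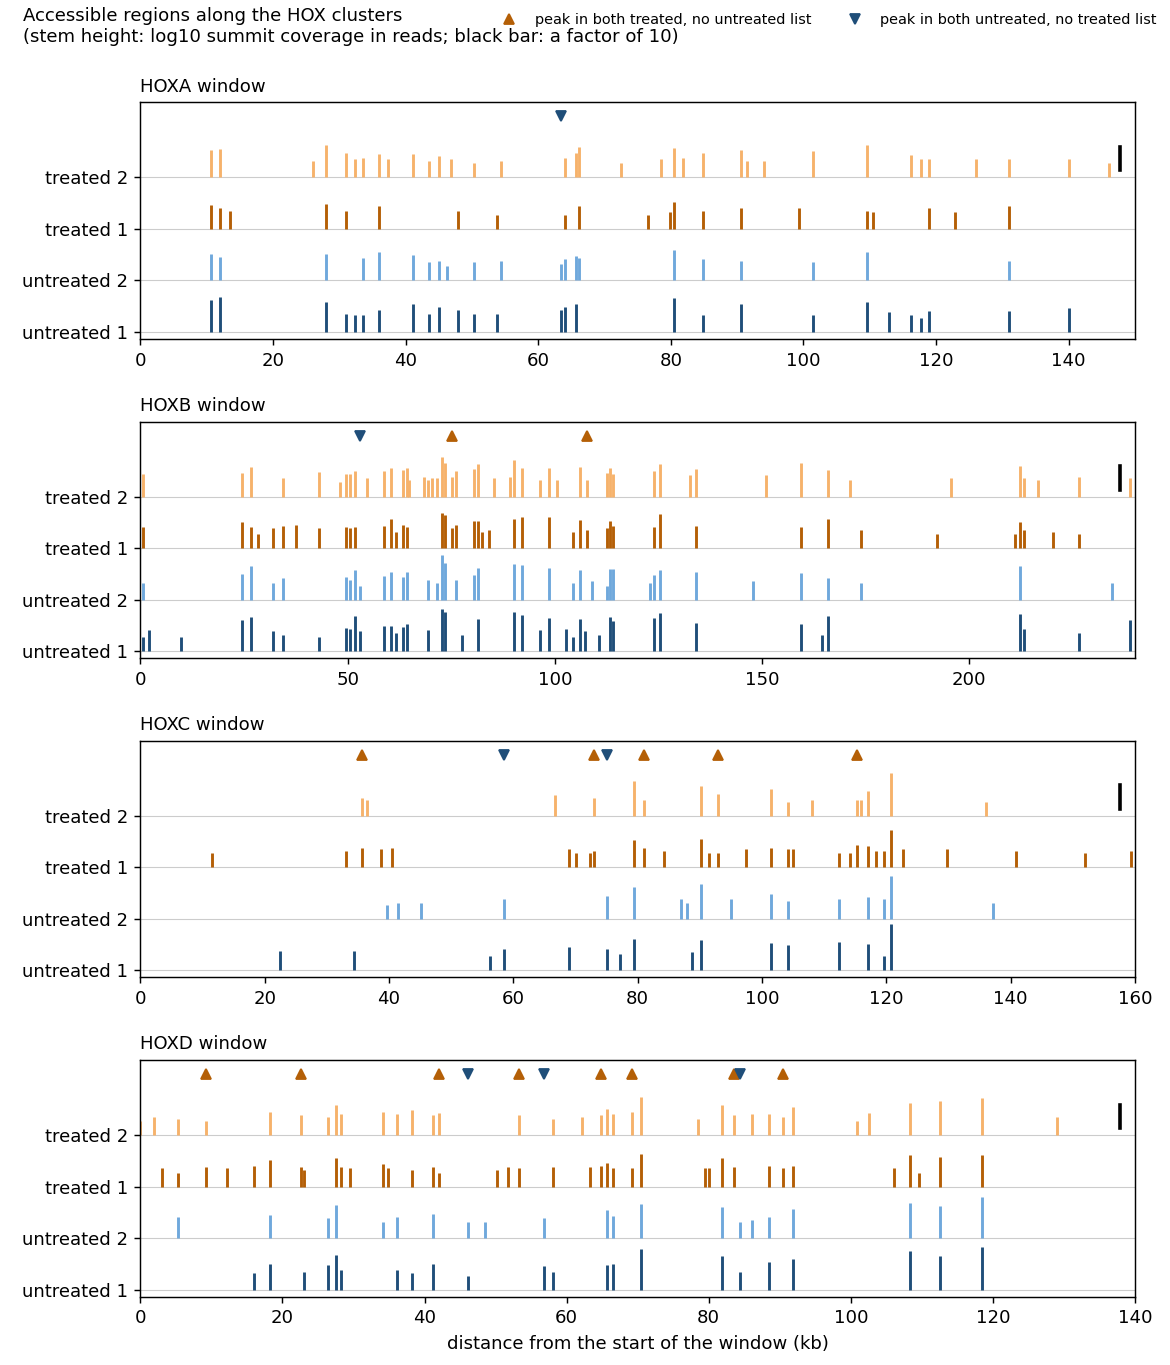
Merged accessible regions along the 4 HOX windows, with the distance from the window's start in kb on the horizontal axis and 1 row per library; each stem is a region with a peak in that library and its height is the log10 of the highest summit coverage (black bar: a factor of 10). Orange triangles mark the 15 regions listed in both treated but neither untreated library, 8 of them in HOXD, and blue triangles mark the 7 listed in both untreated but neither treated library.

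The rise in the 4 windows together was larger than in the sequence beside them. In flanks of the same length on either side of each window there were 137 and 134 peaks in untreated and 140 and 139 in treated cells, a ratio of 1.03. The number of peaks in a window relative to its own flanks was higher in both treated libraries for the 4 windows together, by 0.39 on the log2 scale, and for each window taken alone, by 1.01 for HOXA, 0.25 for HOXB, 0.23 for HOXC and 0.61 for HOXD (exact permutation p = 0.333 for each). The HOXA value rests on few flanking peaks: 13 and 8 in untreated and 5 and 7 in treated cells. The HOXA window itself held fewer peaks in treated replicate 1 (23) than in the untreated libraries (28 and 24). For HOXC treated replicate 1 decided the size: the ratios to the flanks were 0.56 and 0.60 in untreated and 0.76 and 0.61 in treated cells. As a share of all listed peaks, the 4 windows held 57.0 and 56.0 per 100000 in untreated and 62.0 and 73.0 in treated cells, a ratio of 1.20.

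**Figure D2:**
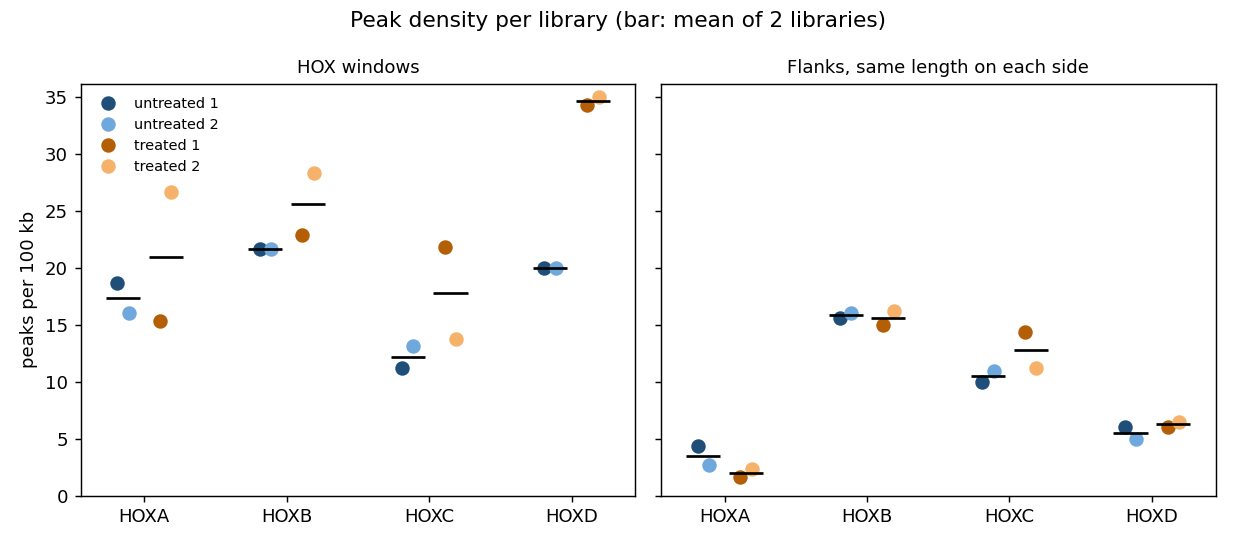
Peaks per 100 kb (vertical axis) in each HOX window and in its flanks of the same length on either side; points are the 4 libraries (untreated in blue, treated in orange) and bars are the mean of 2. In the HOXD window the untreated libraries lie at 20.0 and the treated at 34.3 and 35.0, while in the HOXA window the points of both groups overlap.

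The HOXD cluster, whose HOXD13 end is known for patterning the limbs, had the largest difference of the 4. Its window held 28 peaks in each untreated library, 48 in treated replicate 1 and 49 in treated replicate 2. The groups did not overlap, at 28 ± 0 against 48.5 ± 0.707 (mean ± SD, n = 2 each), a ratio of 1.73 or 0.79 on the log2 scale (exact permutation p = 0.333). An SD from 2 counts is a poor measure of spread. The equal untreated totals differed in make-up, with 20 and 14 peaks of 10 reads or more and 8 and 14 weaker ones. Leaving out any 1 library kept the log2 difference between 0.78 and 0.81.

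How unusual this is can be read from the rest of the genome, cut into tiles of the same length as each window. Of the 8595 tiles of 140 kb with a mean of at least 10 peaks per library, 35.4% had more peaks in both treated than in both untreated lists and 8.47% had fewer, so the separation of the groups by itself is common. The size of the HOXD ratio was less common: counted by summits it was 1.71, where the median tile had 1.13, and 4.51% of the tiles reached it. The HOXD window was also dense, with a mean of 38 peaks over the 4 libraries against 17.75 in the median tile. The share of a list's peaks that lay in HOXD was 12.7 and 12.5 per 100000 in untreated and 18.5 and 20.0 in treated cells, a ratio of 1.53 after the length of each list is divided out.

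The additional HOXD peaks were weak ones. Peaks of 4 to 6 reads numbered 6 and 6 in untreated and 19 and 14 in treated cells, and peaks of 7 to 9 reads 2 and 8 against 16 and 15. Peaks of 10 reads or more numbered 20 and 14 in untreated and 13 and 20 in treated cells, so the strong HOXD peaks overlapped between the groups. Weak peaks were more frequent in treated lists genome-wide too. Against that background, HOXD held 8.52 and 12.5 per 100000 of all peaks under 10 reads in untreated and 19.6 and 22.3 in treated cells, a ratio of 1.99, while for peaks of 10 reads or more the shares were 15.7 and 12.5 against 16.0 and 17.3, a ratio of 1.18. With a minimum of −log10 q = 5 the HOXD window kept 20 and 15 untreated and 14 and 22 treated peaks, and the difference in number was gone (0.02 on the log2 scale). The ratio of means was then 1.03, where it was 0.86 over chromosomes 1 to 22 and X. With each list cut to the same number of its strongest peaks, HOXD kept 28 and 28 against 44 and 44, a ratio of 1.57.

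**Figure D3:**
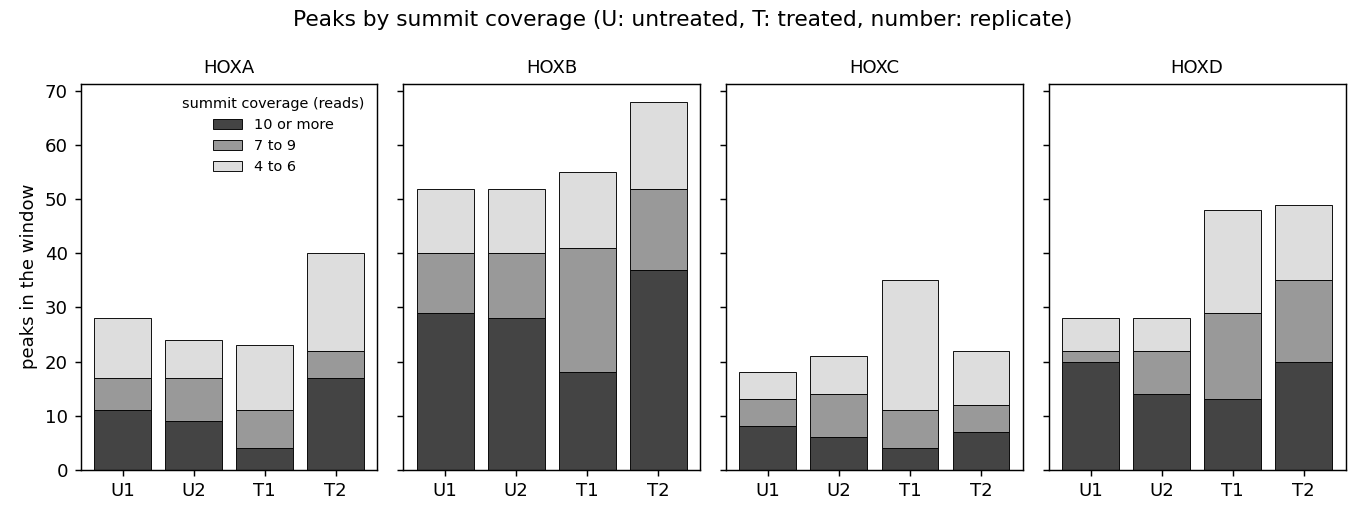
Number of peaks per library (vertical axis) in each HOX window, stacked by summit coverage of 4 to 6, 7 to 9 and 10 or more reads. In HOXD the peaks under 10 reads number 8 and 14 in untreated and 35 and 29 in treated libraries, and those of 10 reads or more 20 and 14 against 13 and 20.

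Along HOXD the additional peaks were spread over the window and not gathered at 1 place. Of its 14 bins of 10 kb, the treated mean was higher in 11, equal in 1 and lower in 2. In 8 of the 13 bins with a peak, both treated libraries lay above both untreated ones, and in 0 did both lie below. In the other windows both lay above in 4 of 14 bins (HOXA), 4 of 21 (HOXB) and 4 of 15 (HOXC), and below in 0, 0 and 1. Of the 152367 bins with a peak genome-wide, 10.1% lay above and 6.05% below. Those bins were not matched to the HOX bins in number of peaks, so the shares are a loose guide only. The densest HOXD bin, 80 to 90 kb from the window's start, held 5 and 7 untreated and 9 and 10 treated peaks. A bin at 110 to 120 kb went the other way, with 5 and 5 untreated and 5 and 3 treated peaks, and it holds the cluster's strongest region. Beyond it the end of the window was nearly empty: chr2:177064249-177075000, 10.8 kb long, had no peak in any list.

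The HOXB cluster, at 21.7 peaks per 100 kb in each untreated library, was the densest of the 4 before treatment. Its window held 52 and 52 peaks in untreated and 55 and 68 in treated cells (52 ± 0 against 61.5 ± 9.19, n = 2 each), a ratio of 1.18 without overlap of the groups. Without treated replicate 2 the log2 difference fell from 0.23 to 0.08. As a share of the list, HOXB held 23.5 and 23.3 per 100000 in untreated and 21.2 and 27.7 in treated cells. By that measure the groups overlapped, at a ratio of 1.05. Among 7448 tiles of 240 kb, 32.6% had both treated libraries above both untreated ones and 10.4% had both below. Counted by summits the HOXB ratio was 1.17 where the median tile had 1.09, and 36.6% of the tiles reached it. Peaks of 10 reads or more overlapped, at 29 and 28 against 18 and 37. HOXB also had the highest share of regions found in all 4 lists, 27 of 75 (36.0%), where 28.2% of regions did so over the chromosomes used. The densest bin, 90 to 100 kb from the start, had 9 and 10 untreated and 7 and 11 treated peaks. Towards its HOXB13 end the window held the longest stretch without a peak in any list, chr17:46764134-46781909, 17.8 kb long.

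The HOXA cluster, which includes HOXA3, gave no clear difference in number. It held 28 and 24 peaks in untreated and 23 and 40 in treated cells. The treated libraries lay on both sides of the untreated ones (26 ± 2.83 against 31.5 ± 12.0, n = 2 each, ratio 1.21, exact permutation p = 1), and without treated replicate 2 the direction turned, to −0.17 on the log2 scale. Of 8512 tiles of 150 kb, 34.5% had both treated above both untreated libraries and 8.92% had both below, and 32.9% reached the HOXA ratio. Treated replicate 1 had 4 HOXA peaks of 10 reads or more, against 11, 9 and 17 in untreated 1, untreated 2 and treated 2. A stretch of 12.0 kb near the HOXA2 end, chr7:27123817-27135852, had no peak in any list.

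The HOXC cluster was the sparsest before treatment, at 11.3 and 13.1 peaks per 100 kb in the untreated libraries. It held 18 and 21 peaks in untreated and 35 and 22 in treated cells (19.5 ± 2.12 against 28.5 ± 9.19, n = 2 each, ratio 1.46, exact permutation p = 0.333). The groups did not overlap, as in 34.9% of 8445 tiles of 160 kb (8.95% separated the other way, and 12.7% reached the HOXC ratio), but treated replicate 1 decided the size: 24 of its 35 HOXC peaks had 4 to 6 reads, against 5, 7 and 10 such peaks in untreated 1, untreated 2 and treated 2. Without that library the log2 difference fell from 0.51 to 0.18. As a share of the list, HOXC held 8.14 and 9.40 per 100000 in untreated and 13.5 and 8.97 in treated cells, and the groups overlapped. In HOXC, 34 of 50 regions (68.0%) were found in 1 list alone, where the share over all regions was 45.9%, and 17 of the 34 were in treated replicate 1. The first 11.3 kb of the window, at its HOXC13 end (chr12:54310001-54321282), had no peak in any list.

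Gained regions, which are those listed in both treated but neither untreated library, numbered 15 of 224 in the HOX windows (6.70%, 95% Wilson interval 4.10% to 10.8%). Over all 373425 regions the share was 4.21%. Lost regions, listed in both untreated but neither treated library, numbered 7 (3.13%, interval 1.52% to 6.31%), where 3.35% of all regions were lost. Regions shared by 1 untreated and 1 treated list alone, which follow neither group, numbered 16 (7.14%), against 7.85% of all regions. In the flanks, 5 of 212 regions were gained and 12 lost. These intervals cover counting error only.

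HOXD had the most gained regions when whole peak intervals were merged. There 8 of 52 regions were gained (15.4%, interval 8.01% to 27.5%), 3 were lost (5.77%, interval 1.98% to 15.6%) and 3 were in 1 untreated and 1 treated list. HOXC had 5 gained of 50 (10%, interval 4.35% to 21.4%) and 2 lost, and HOXB 2 gained of 75 and 1 lost. HOXA had 0 gained of 47 (interval 0% to 7.56%) and 1 lost. This order depended on the merging: when peaks were shortened to 100 bp on either side of the summit, 3 regions were gained in HOXD, 6 in HOXB, 4 in HOXC and 2 in HOXA. At −log10 q of at least 5, HOXD had 1 gained and 2 lost regions. Of the 52 HOXD regions, 21.2% were in treated replicate 1 alone and 13.5% in treated replicate 2 alone, near the 19.3% and 11.0% of all regions. In untreated replicate 1 alone there were 0 HOXD regions (interval 0% to 6.88%) and in untreated replicate 2 alone 1.92%. The shares of all regions were 7.69% and 7.95%. With equal numbers of peaks per list, HOXD kept 6 gained and 3 lost regions and HOXC 1 gained and 3 lost. The 4 windows together then had 9 gained and 11 lost, so there gained regions no longer outnumbered lost ones. Shares over all regions were not counted for shortened peaks, the −log10 q limit or equal lists. Whether these shifts are particular to the HOX windows was therefore not tested.

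**Figure D4:**
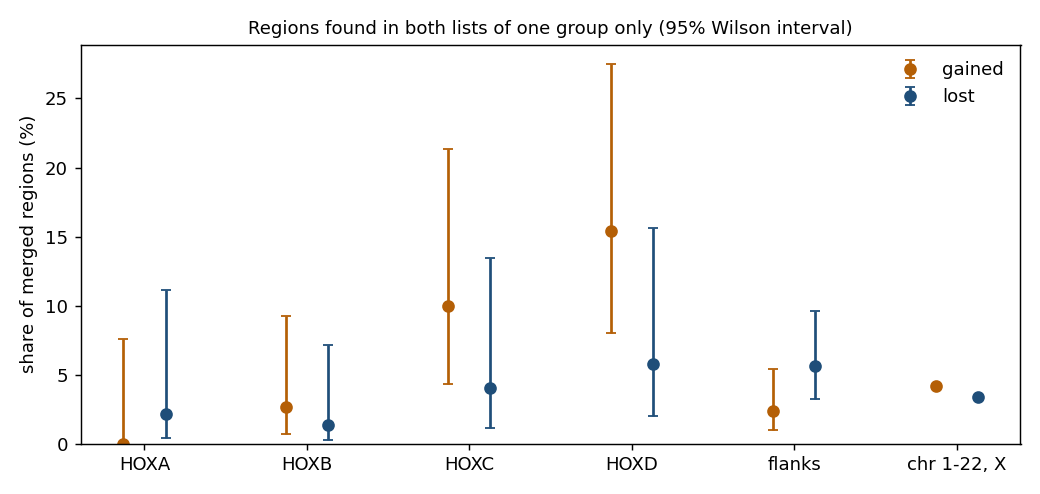
Share of merged regions (percent, vertical axis) gained or lost after treatment in each HOX window, with 95% Wilson intervals, beside the flanks and all regions of chromosomes 1 to 22 and X. HOXD has the highest gained share, 15.4% (interval 8.01% to 27.5%), and HOXC has 10% (4.35% to 21.4%), where 4.21% of all regions were gained. The intervals cover counting error over regions only, not the spread between libraries, so they are no test of treatment. With peaks shortened to their summits, HOXD has 3 gained regions and HOXB 6. With equal numbers of peaks per list, HOXD has 6 and HOXC 1. Shares over all regions were not counted under these alternative settings. The lost shares in the 4 windows have intervals that include the 3.35% of all regions.

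The gained HOX regions were all weak, with summit coverages from 4 to 10 reads. Ranked by the lower value of the 2 lists, the first in HOXD was chr2:176999648-177000163, with 8 reads in treated replicate 1 and 7 in treated replicate 2. Next came chr2:176957287-176957820 and chr2:177018171-177018984, each with 7 and 7 reads. All 3 stood only a few reads above the 4 at which the lists begin. The 3 lost HOXD regions were of the same strength: chr2:176991408-176992190 had 10 and 7 reads in untreated 1 and 2, chr2:177019123-177019791 had 6 and 5, and chr2:176980705-176981532 had 4 and 5. The gained region at 177018171 and the lost one at 177019123 lie next to each other, so in this bin a peak was listed in each group at neighbouring but separate places. Among the 15 gained and 7 lost HOX regions, 0 reached 10 reads in both lists. Over the chromosomes used 3.30% of gained and 7.75% of lost regions did so.

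In HOXC the gained regions with the highest lower value of the 2 lists were chr12:54345323-54345883 with 7 and 6 reads in treated 1 and 2, chr12:54424987-54425491 with 9 and 5, and chr12:54390629-54391500 with 7 and 5. The lost ones were at least as strong, chr12:54384889-54385397 with 8 and 10 reads in untreated 1 and 2 and chr12:54368221-54368766 with 8 and 7. In HOXB the gained regions were chr17:46664774-46665810 (7 and 7 reads) and chr17:46697615-46698156 (6 and 5), and the lost one chr17:46642444-46643450 (7 and 4). In HOXA the lost region was chr7:27173171-27173736 (9 and 5 reads in untreated 1 and 2).

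The running numbers in the peak names have gaps, so absence from a list need not mean that no peak was numbered there. Between the listed peaks on either side of the region a number was missing in at least 1 of the lists that lack it for 4 of the 8 gained HOXD regions, 4 of the 5 in HOXC and 1 of the 2 in HOXB, where 24.4% of all gained regions had such a gap. For lost regions this was 0 of 3 in HOXD, 1 of 2 in HOXC, 1 of 1 in HOXB and 0 of 1 in HOXA, against 26.1% of all lost regions. Within the HOXD window 6 and 8 numbers were missing in untreated and 7 and 10 in treated lists. Counting original peaks, in which several summits can share a number, with the missing numbers added, HOXD had 29 and 33 in untreated and 50 and 51 in treated cells, so the groups stayed apart. In the 4 windows 16.3% and 21.7% of numbers were missing in untreated and 20.3% and 19.0% in treated lists, above the 9.55%, 12.2%, 12.9% and 14.3% of the same libraries over the chromosomes used.

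The clusters also held 55 regions open in all 4 lists (24.6% of 224), and there the direction of the difference in coverage turned with the scale used. Their median summit coverage was 20 and 16 reads in untreated and 10 and 16 in treated cells, and over all 105414 regions found in 4 lists it was 23 and 18 against 11 and 16. The median of the treated minus untreated log2 coverage was −0.44 in the HOX windows, where it was −0.56 over all such regions and −0.87 in the flanks. It was −0.43 in the 10 HOXA regions, −0.37 in the 27 HOXB regions, −0.51 in the 6 HOXC regions and −0.57 in the 12 HOXD regions. The size depended on both replicate 1 libraries: without untreated replicate 1 the HOX median was −0.19, and without treated replicate 1 it was −0.25. Over all regions found in the remaining lists these values were −0.35 and −0.30. Set side by side by number alone, the replicate 1 libraries differed by −0.82 and the replicate 2 libraries by −0.042, beside −1 and −0.15 over all regions. When each library was first centred on its own median over all regions found in 4 lists, the HOX median turned to 0.18, beside 0.06 over all of those regions, so no direction is drawn from the uncentred values.

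Both treated libraries lay below both untreated ones in 22 of the 55 regions and above in 2, and the groups overlapped in 31. Over all regions found in 4 lists, 47.6% lay below and 4.39% above. HOXD had 7 of 12 below, HOXB 11 of 27 below and 2 above, and HOXA and HOXC 2 below each, of 10 and of 6. By rank among the regions found in all 4 lists of the same library, both treated libraries lay above both untreated ones in 13 of the 55 and below in 9, against 22.5% and 23.7% of all such regions. For the single regions that follow, coverage is given unscaled, with the percentile in this ranking where the 2 scales differ.

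**Figure D5:**
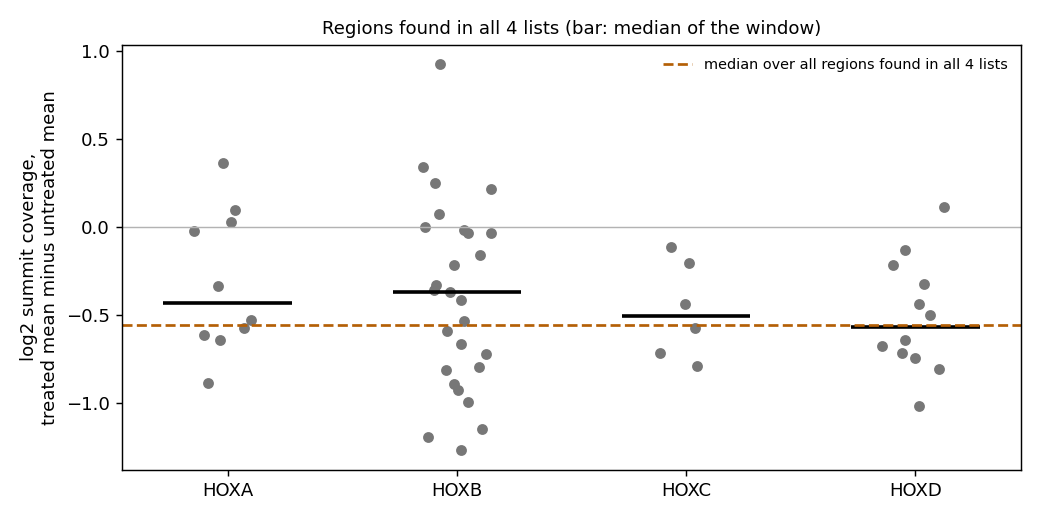
Difference in summit coverage between treated and untreated libraries (mean log2, vertical axis) for each of the 55 HOX regions found in all 4 lists, by window; the short bar is the window's median and the dashed line the median over all regions found in 4 lists, −0.56. The HOX regions range from −1.27 to 0.92, and the medians of the windows lie between −0.57 and −0.37.

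The 2 strongest sites by rank were taken from each window, 8 in all. They are not the 8 strongest HOX sites, because some HOXB and HOXD sites left out were stronger than those of HOXA. Both treated libraries had fewer unscaled reads than both untreated ones at 5, and the groups overlapped at 3. By percentile the groups overlapped at 4, and both treated libraries were higher at 3 and lower at 1. The site with the most reads was chr12:54430556-54431084 in HOXC, with 100 and 70 reads in untreated and 38 and 68 in treated cells (−0.72 on the log2 scale). Its percentiles overlapped, at 96.6 and 95.3 against 95.5 and 97.5. The second HOXC region, chr12:54388625-54390187, had 23 and 23 reads against 15 and 30, which overlap, while its percentiles were higher in both treated libraries (49.9 and 61.5 against 64.8 and 78.3). In HOXB the leading pair lay side by side: chr17:46662232-46663164 had 65 and 80 reads in untreated and 32 and 47 in treated cells (−0.89), and chr17:46663168-46663705 had 46 and 37 against 26 and 26 (−0.67). Both treated libraries lay below both untreated ones in reads, but the percentiles overlapped at both sites, at 88.7 and 97.0 against 92.5 and 91.9 and at 78.2 and 79.7 against 87.2 and 72.5.

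In HOXD the strongest region was chr2:177052072-177054785, with 64 and 56 reads in untreated and 23 and 38 in treated cells (−1.02), the lowest log2 value in that window. Its percentiles were lower as well, at 88.3 and 91.2 against 83.2 and 86.4. The next, chr2:177005093-177005905, had 55 and 30 against 25 and 42, which overlap, and percentiles of 84.1 and 72.2 against 85.9 and 89.2, which are higher in both treated libraries. Another HOXD site, chr2:177042584-177043981, had 47 and 33 against 22 and 23 (−0.81), with overlapping percentiles. In HOXA, whose sites were weaker, chr7:27190087-27190896 had 29 and 20 reads against 14 and 17 (−0.64), with overlapping percentiles of 60.1 and 55.5 against 61.2 and 52.1. The second HOXA site, chr7:27137164-27138751, had 19 and 14 reads against 12 and 23 and percentiles of 41.4 and 39.5 against 52.8 and 66.9.

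The lowest log2 values of the 55 regions, −1.27 and −1.19, were both in HOXB, and these regions were also lower in rank. The region chr17:46641370-46642136 had 31 and 18 reads in untreated and 8 and 12 in treated cells, with percentiles of 62.9 and 50.9 against 28.3 and 33.9. At chr17:46616475-46617006 the reads were 29 and 26 against 8 and 18 and the percentiles 60.1 and 66.6 against 28.3 and 55.0. In HOXA, chr7:27173774-27174354 had 12 and 8 reads against 4 and 7 (−0.89) and percentiles of 23.1 and 16.2 against 1.03 and 10.2. In HOXC chr12:54413606-54414729 had 12 and 6 reads against 6 and 4 (−0.79), where treated replicate 1 equalled the lower untreated value.

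The 2 regions with more reads in both treated than in both untreated libraries were both in HOXB. At chr17:46590430-46590986, at the HOXB1 end of the window, coverage was 4 and 5 reads in untreated and 8 and 9 in treated cells (0.92 on the log2 scale), and the percentiles were 0.386 and 2.46 against 28.3 and 20.1. At chr17:46650116-46651079 it was 12 and 15 against 17 and 17 (0.34), at percentiles of 23.1 and 42.6 against 70.8 and 52.1. In the other clusters the highest differences came with groups that overlap in reads. In HOXD they were 12 and 10 against 14 and 10 reads at chr2:176952943-176953485 and 27 and 24 against 18 and 30 at chr2:177047296-177047847, where the percentiles were higher in both treated libraries (57.0 and 63.3 against 73.4 and 78.3). In HOXA, chr7:27194534-27195090 had 5 and 8 reads against 6 and 11, and chr7:27200225-27201012 had 15 and 7 against 8 and 15. In HOXC, chr12:54426216-54428034 had 13 and 9 reads against 8 and 11, while its percentiles were higher in both treated libraries. Most of these differences are of a few reads, and no test per region was run.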

How the data were processed

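ATAC-seq peak lists of 4 BCPAP libraries were used, 1 per library, in hg19 coordinates. Per the submitters' processing notes, reads went through Trimmomatic, Bowtie2, Picard and MACS2. Their versions and settings, and the read numbers, are not given among the sources used here. Peaks were called per library, as the deposited peak names show, and the authors set the intervals to 500 bp. The peak score in the deposited lists was scaled by the authors to a fixed total and was not compared here. Each deposited peak carries its own fold enrichment (a ratio), −log10 p and −log10 q from the authors' caller. The deposited summit offset was used only to check where a summit lies.

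Fold values were whole multiples of 1 step per list (within 0.001 of a step), and fold divided by step, less 1, gave the summit coverage in reads. Background coverage was 0.913, 0.898, 0.898 and 0.875 reads in untreated 1, untreated 2, treated 1 and treated 2. It compares depth only if the authors' settings were shared. Peaks sharing at least 1 bp were merged to regions. Peak numbers were compared by exact two-sided permutation over 6 assignments. Coverage was set side by side with no test. Intervals are 95% Wilson. Region calling was tested on simulated data with 20000 sites, and 100% of the gained and lost ones were found. These sites were separate from each other and stronger than the gained and lost HOX regions. The simulation therefore does not cover weak or crowded peaks. Tiles needed a mean of 10 peaks.

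The windows, members and lists were chosen with earlier results of these data known. Regions named per window were the 2 strongest, the 2 highest and 2 lowest differences among regions found in all 4 lists, and gained and lost regions (all, or the 3 strongest where there were more than 4). The alternatives tried were −log10 q of at least 5, lists cut to equal length, other merging rules, other coverage scales, leaving out each library and the replicate block, and, chosen after seeing the data, minimum coverages of 7 and 10. Same-numbered libraries did not deviate together (correlation −0.052 over 105414 regions found in 4 lists), so the numbers were not used as pairs. The line's marker genes were not checked in peak lists. Scripts ran on Python 3.11.15 with pandas 2.3.3, numpy 2.4.6 and scipy 1.17.1, and figures were drawn with matplotlib 3.10.9.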

Additional observations from a re-analysis of the deposited data

How the results depend on the processing

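The direction of the peak counts depended on low-coverage peaks. For the 4 windows together the log2 differences in peak number and bases covered, 0.44 and 0.43, turned to −0.075 and −0.090 at −log10 q of at least 5 and to −0.15 and −0.17 at a coverage of at least 10. Treated replicate 1 alone lay below the untreated lists there, with 48 and 39 peaks against 75 and 66 and 68 and 57, while treated replicate 2 lay above them with 93 and 81. The ratio of means was 1 and 0.96, where over chromosomes 1 to 22 and X it was 0.86 and 0.82. At a coverage of at least 7 it was 1.15 in the windows and 0.96 over those chromosomes. By window, the number turned to −0.14 in HOXA, −0.085 in HOXB and −0.16 in HOXC at −log10 q of at least 5. At a coverage of at least 7 it turned to −0.13 in HOXA and −0.23 in HOXC, while HOXD kept 0.53. At a coverage of at least 10 it turned to −0.27 in HOXA (where the ratio of means was 1.05), −0.14 in HOXB, −0.39 in HOXC and −0.053 in HOXD. Shortening peaks to 100 bp around the summit left 3 gained regions in HOXD and 6 in HOXB. Gained and lost regions, 15 and 7, were 2 and 2 at −log10 q of at least 5 and 9 and 11 with equal numbers of peaks per list. Shares over all regions were not counted under these settings or with 1 library left out. With 1 library left out, and so fewer lists to meet, there were 21 to 57 gained and 12 to 22 lost regions, the peak number stayed between 0.36 and 0.51, the HOXA number between −0.17 and 0.63, and the median log2 coverage difference of shared regions, −0.44, between −0.60 and −0.19 (HOXA −0.61 to 0.022, HOXC −0.62 to 0.043). Scaling turned that difference over the 4 windows. On library-centred values it was 0.18 (HOXA 0.18, HOXB 0.24, HOXC 0.11, HOXD 0.046), beside 0.059 over all shared regions. As a rank it was 0.88 percentile points (HOXA 0.20, HOXB 2.91 and HOXC 1.45, while HOXD kept its direction at −2.16), beside −0.12 over all shared regions. The cause of these turns was not tested.

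The replicate block left the peak number at 0.44 and the bases at 0.43 (exact permutation p = 0.5 for each, the smallest that 2 pairs allow). Over all alternatives, 33 values for the 4 windows together stayed the same, 10 moved and 6 reversed. The rule for staying the same was direction alone for peak number and bases. For gained and lost regions it was a count within 1.5 times. For coverage it was the same direction and a shift smaller than the SD between libraries. Sizes shifted even where the direction held: the peak number was 0.19 at a coverage of at least 7 and 0.23 with equal lists. Each list begins at 4 reads, so nothing weaker can be compared.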
